A study of Mus musculus with 8 samples.

Results

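The 10 genes described here encode proteins that limit or modulate inflammatory mRNAs, and they were followed in mature dendritic cells. They were taken by name from both deposited expression tables and are Zfp36, Zfp36l1, Zfp36l2, Zc3h12a, Rc3h1, Khsrp, Elavl1, Arid5a, Cnot1 and Btg1. All 10 were found among the 11743 genes held by both tables, and all 10 were among the 10321 genes that entered the tests.

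The study asked how translation differs in dendritic cells that lack Mettl3, the catalytic subunit of the enzyme that writes N6-methyladenosine (m6A) into mRNA. The KO mice carry floxed Mettl3 alleles and CD11c-Cre, so that exons 2 to 4 are removed in cells that express CD11c, and the WT mice were littermates. Cells were grown from bone marrow of mice aged 6 weeks on a C57BL/6 background with GM-CSF at 10 ng/ml and IL-4 at 1 ng/ml. They were selected on CD11c beads and matured with lipopolysaccharide (LPS), a bacterial agonist of TLR4, at 100 ng/ml for 24 h. All groups shared these cytokines and LPS, and no unstimulated library belongs to the series. From each lysate came a library of ribosome-protected fragments (RPF) of single ribosomes and one of input mRNA, and RPF divided by input is called translation efficiency. There were 4 groups of 2 libraries, KO RPF, KO input, WT RPF and WT input, 8 libraries in all. The design text of the series states that it holds no replicate, while samples and tables give 2 libraries a group. The bone marrow came from several pairs of littermates, and neither labels nor methods say which mice went into which replicate. The p-values therefore cover only how these samples spread, which could be technical variation.

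AU-rich elements are stretches of A and U in the 3′ untranslated region (3′UTR) of many cytokine mRNAs. Zfp36 (tristetraprolin) and its relatives Zfp36l1 and Zfp36l2 bind them through CCCH zinc fingers and bring in the CCR4-NOT complex, which shortens the poly(A) tail and starts decay. Zc3h12a (regnase-1, an endonuclease) and Rc3h1 (roquin-1) act on stem loops in 3′UTRs instead, Elavl1 (HuR) and Arid5a protect their target mRNAs, and LPS induces several of these factors in myeloid cells as a brake on the cytokine response.

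The mRNAs of several of these factors carry such elements themselves. The nonamer TTATTTATT, the DNA spelling of the core site of the Zfp36 family, was sought on the transcript strand in the 3′UTR of 1 RefSeq transcript per gene (GRCm38.p6, the assembly of mm10). It was present in Zfp36, Zfp36l1, Zfp36l2, Rc3h1 and Elavl1 and in none of the other 5 factors, against 7.29% of the 10286 tested genes with a 3′UTR. The windows below show these sites and one of Tnf, a known target of Zfp36, as windows of 29 bases with every base of a nonamer in capitals, also where a nonamer runs past the window.
Zfp36, chr7:28376951-28376979, minus strand: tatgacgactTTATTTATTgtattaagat
Zfp36l1, chr12:80108167-80108195, minus strand: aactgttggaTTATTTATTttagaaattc
Zfp36l2, chr17:84184914-84184942, minus strand: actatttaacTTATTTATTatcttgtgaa
Rc3h1, chr1:160970043-160970071, plus strand: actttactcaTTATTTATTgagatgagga
Elavl1, chr8:4285784-4285812, minus strand: tgaaaaTTATTTATTTATTTATTTATTtT
Tnf, chr17:35199678-35199706, minus strand: TATTTATTATTTATTTATTATTTATTTAT

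The single nonamers of Zfp36, Zfp36l1, Zfp36l2 and Rc3h1 stood alone, while most of those of Elavl1 and all of those of Tnf overlapped in runs. Elavl1 held 8 nonamers in a 3′UTR of 4818 bases, and Tnf held 5 in 778 bases. Among genes with a 3′UTR of similar length, down to 0.8 times or up by the same factor, a nonamer was found in 4.87% for Zfp36, 9.04% for Zfp36l1, 9.04% for Zfp36l2, 31.4% for Rc3h1 and 22.3% for Elavl1. The shorter core ATTTA, which lies inside every nonamer, occurred in all 10 factors, with counts from 1 in Khsrp to 20 in Rc3h1. For the length of their 3′UTR, Zfp36l1 with 9 copies and Elavl1 with 18 were rich in it, numbers reached by 4.79% and 4.73% of genes of like length. The letters GGACT, a frequent context of m6A, were found in the coding sequence or 3′UTR of all 10 factors, from 3 in Zc3h12a, Zfp36 and Zfp36l2 to 11 in Cnot1, and in 89.9% of tested genes. These matches describe the sequence only and do not show that a site is used or methylated.

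Mettl3 itself was examined as a check of the labels. Its input level was 6.27 RPKM (reads scaled for length and depth) in the KO library against 6.97 RPKM in the WT library of replicate 1, and 11.9 RPKM in KO against 10.1 RPKM in WT in replicate 2. Its RPF level was 15.3 RPKM in KO against 34.0 RPKM in WT, and 5.88 RPKM in KO against 9.63 RPKM in WT, where the last pair stands for 54 KO reads and 81 WT reads. RPF of Mettl3 was lower in KO in both replicates and input was not. The deletion takes out exons 2 to 4 only, and a value for the whole gene also counts reads from the exons that remain, so these levels are a weak check. KO and WT below mean the libraries labelled KO and labelled WT.

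The 8 dendritic cell markers checked were above 0 in every library, with summed input of 5310 and 5510 RPKM in KO against 4550 and 5890 RPKM in WT. Neutrophil markers summed to 969 and 2600 RPKM in KO input against 1530 and 2900 RPKM in WT input. In input all 7 were lower in KO in both replicates relative to all genes, against 23.0% of all genes. In RPF 1 of the 7 was lower in both and 4 were higher in both, against 24.4% of all genes each way. Macrophage markers summed to 865 and 1330 RPKM in KO input against 1170 and 972 RPKM in WT input. Mast cell and basophil markers summed to 5.32 and 25.2 RPKM in KO input against 12.2 and 52.8 RPKM in WT input. T and NK cell markers summed to 7.59 and 17.6 RPKM in KO input against 6.04 and 11.3 RPKM in WT input. Whether these other cells took part in any value below was not tested, and in such bulk samples fewer cells of a type and less RNA per cell cannot be told apart. The KO and WT libraries of replicate 2 stood on 5276406 and 4835140 reads in RPF and 8794578 and 9920474 reads in input, and the depth of replicate 1 is unknown. The log2 KO/WT of the median gene stood at -0.46 (RPF) and -0.42 (translation efficiency) in replicate 1, against -0.03 and -0.02 in replicate 2, and at -0.03 and -0.01 in input. Changes "relative to all genes" below have this median subtracted.

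None of the 10 factors passed the test for a change between KO and WT in input, RPF or translation efficiency (limma, adjusted p of 0.916 or higher). In the same fits limma called 0 of 10321 genes in input (0.0%), with 339 genes at an unadjusted p under 0.05, 25 in RPF (0.242%) and 17 in translation efficiency (0.165%). Each factor is described below by its 8 values, since a missed threshold does not show equal levels. The 95% interval of the fitted change stood between 0.196-fold (Khsrp) and 2.37-fold (Rc3h1) at its outermost in RPF and between 0.485-fold (Zfp36l2) and 1.67-fold (Btg1) in input, and the interval held 0 change for all factors and measures other than Zfp36l2 input. In RPF and translation efficiency limma took the spread entirely from other genes of like level (infinite prior degrees of freedom), so an SE there does not reflect how far the replicates of that gene lie apart.

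The factors covered a wide range of mRNA levels, and the order was nearly the same in all 4 input libraries. Per length, Btg1 mRNA was the highest in each of them (248 to 397 RPKM), followed by Zfp36 and Zfp36l1 (134 to 283 RPKM), which changed places between libraries. Zfp36l2, Zc3h12a, Khsrp and Cnot1 lay between 19.5 and 38.6 RPKM and did not keep an order. Elavl1, Rc3h1 and Arid5a followed in that order in every input library, from 14.1 RPKM down to 5.08 RPKM, and Rc3h1 and Arid5a were close in the KO input of replicate 2 (7.40 and 7.06 RPKM). The ratio of highest to lowest was 68.8 and 35.1 in KO and 50.2 and 49.0 in WT. Levels of the 2 tables may have been normalized separately, so ranges across them are a description.

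**Figure D1:**
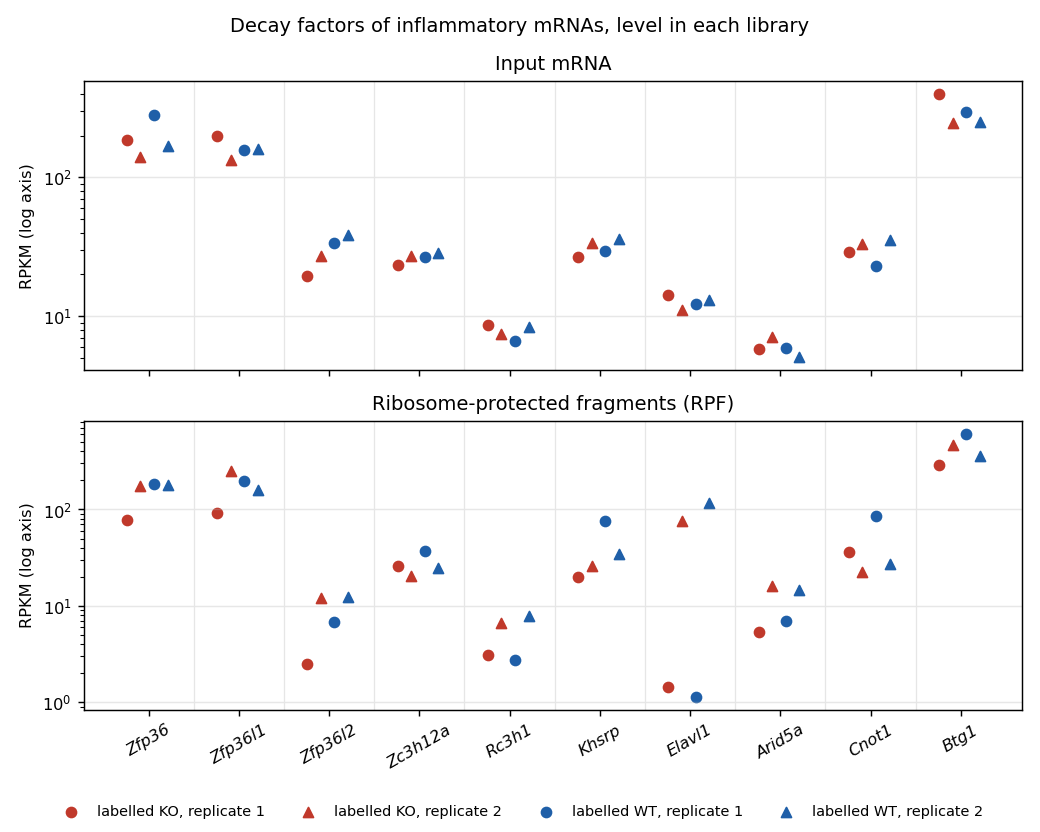
RPKM of each of the 10 factors (log axis) in input mRNA and in RPF, with KO-labelled libraries in red to the left of WT-labelled libraries in blue, circles for replicate 1 and triangles for replicate 2. Input points of a gene lie close together, with Btg1 highest at 248 to 397 RPKM, while RPF points spread further, most of all for Elavl1 at 1.15 to 116.5 RPKM.

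Among the CCCH zinc finger factors, the mRNAs of Zfp36 and Zfp36l2 were at lower levels in the KO library than in the WT library of both replicates. Zfp36l2 (chromosome 17, 84183924 to 84187947) had 19.5 RPKM of input in KO against 34.0 RPKM in WT in replicate 1, and 27.1 RPKM in KO against 38.6 RPKM in WT in replicate 2. Both KO values were below both WT values, across tables that may have been normalized separately. The share of all genes separated in this way was not counted. The log2 KO/WT of input was -0.79 and -0.50, a level 42.7% and 29.7% lower, and the fit gave -0.64 ± 0.17 (SE, n = 2 per group, limma unadjusted p = 0.0057, adjusted p = 1.0). It was the only factor with an unadjusted p under 0.05 in any measure. Input of Zfp36l2 was at percentile 68.9 and 71.3 of the tested genes in KO and at 80.0 and 80.1 in WT, which was a steady place among the genes within each label.

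Zfp36l2 RPF was 2.51 RPKM in KO against 6.76 RPKM in WT in replicate 1, and 12.0 RPKM in KO against 12.2 RPKM in WT in replicate 2, which stand for 92 KO reads and 86 WT reads. The KO value was lower in replicate 1 and the values were nearly equal in replicate 2, with a log2 KO/WT of -0.03 and a counting interval of -0.47 to 0.41. Footprints on this mRNA were few for its level in every lysate, since its translation efficiency was at percentile 2.3 and 15.0 in KO and at 2.9 and 6.8 in WT. Its log2 KO/WT of translation efficiency went opposite ways, -0.48 in replicate 1 and 0.47 in replicate 2.

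Zfp36 (chromosome 7, 28376784 to 28379228) had 187 RPKM of input in KO against 283 RPKM in WT in replicate 1, and 140.4 RPKM in KO against 168 RPKM in WT in replicate 2. KO was lower within each replicate, though the KO value of replicate 1 exceeded the WT value of replicate 2. The log2 KO/WT was -0.60 and -0.26, with a fit of -0.43 ± 0.21 (SE, limma unadjusted p = 0.0793, adjusted p = 1.0). In replicate 2 the values stand for 2180 KO reads and 2941 WT reads, and the counting interval ran from -0.34 to -0.18. That interval covers counting error only. In input of replicate 2 it also lay below 0 for Zfp36l1 (-0.32 to -0.19) and Elavl1 (-0.39 to -0.08), which were higher in KO in replicate 1.

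Zfp36 RPF was 78.6 RPKM in KO against 185 RPKM in WT in replicate 1, and 175 RPKM in KO against 179 RPKM in WT in replicate 2 (884 and 829 reads). The KO library of replicate 1 was the low one, and the other 3 lay between 175 and 185 RPKM. In RPF the log2 KO/WT was -1.23 and -0.03, or -0.77 and -0.01 relative to all genes. Translation efficiency of Zfp36 was at percentile 11.1 and 60.1 in KO and at 13.5 and 53.1 in WT, so it differed more between the replicates than between the labels.

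Zfp36l1 (chromosome 12, 80107760 to 80113013) went opposite ways in the 2 replicates in all 3 measures. Its input was 198 RPKM in KO against 157 RPKM in WT in replicate 1, and 134 RPKM in KO against 160.2 RPKM in WT in replicate 2. Its RPF was 92.1 RPKM in KO against 199.6 RPKM in WT in replicate 1, and 251 RPKM in KO against 157 RPKM in WT in replicate 2. The log2 KO/WT of translation efficiency was -1.44 in replicate 1 and 0.92 in replicate 2, and the fit gave -0.26 ± 0.66 (SE, limma adjusted p = 1.0). In replicate 2 the RPF values stand for 1341 KO reads and 772 WT reads, and the counting interval of the change in translation efficiency, 0.78 to 1.07, lay above 0. That interval covers counting error only.

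Of the factors that act on stem loops, Zc3h12a varied least between libraries. Zc3h12a (chromosome 4, 125118414 to 125127881) had 23.4 and 27.2 RPKM of input in KO against 26.8 and 28.5 RPKM in WT. Its RPF was 26.1 and 20.4 RPKM in KO against 37.0 and 24.9 RPKM in WT, which in replicate 2 were 192 KO reads and 215 WT reads. KO was lower than WT within both replicates in both kinds of library, with a log2 KO/WT of -0.19 and -0.07 for input and of -0.50 and -0.28 for RPF, while the groups overlapped across replicates. In RPF the first of these differences was close to the shift of all genes, with -0.04 and -0.26 left relative to it. Its translation efficiency kept a place below the median gene in all 4 lysates, at percentile 34.9 and 33.9 in KO and 31.4 and 41.3 in WT.

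Rc3h1 (chromosome 1, 160906411 to 160974976) had 8.61 and 7.40 RPKM of input in KO against 6.67 and 8.41 RPKM in WT. Its RPF was 3.13 and 6.65 RPKM in KO against 2.76 and 7.81 RPKM in WT, with 119 KO reads and 128 WT reads in replicate 2. The groups overlapped in both, and KO was higher in replicate 1 and lower in replicate 2. Rc3h1 was among the low factors in footprints in each library, and the log2 KO/WT of its translation efficiency was -0.19 and -0.04, or 0.23 and -0.03 relative to all genes.

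Khsrp, a KH-domain protein that binds AU-rich elements and promotes decay, had fewer footprints in KO in both replicates, with little difference in mRNA. Khsrp (chromosome 17, 57021049 to 57031507) had an RPF level of 20.2 RPKM in KO against 76.8 RPKM in WT in replicate 1, and 25.9 RPKM in KO against 34.3 RPKM in WT in replicate 2, from 307 KO reads and 372 WT reads. Both KO values lay below both WT values, and the high value was that of the WT library of replicate 1. This separation also runs across the tables, and its share among all genes was not counted. Input was 26.7 and 33.8 RPKM in KO against 29.7 and 36.1 RPKM in WT. The log2 KO/WT of RPF was -1.90 and -0.40, or -1.45 and -0.37 relative to all genes, and its fit of -1.15 ± 0.61 (SE) gave the lowest p of the factors in RPF (limma unadjusted p = 0.0598, adjusted p = 0.916). The counting interval of replicate 2, -0.63 to -0.18, lay below 0.

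For translation efficiency of Khsrp the log2 KO/WT was -1.75 (replicate 1) and -0.31 (replicate 2), with a fit of -1.03 ± 0.66 (SE, limma unadjusted p = 0.118, adjusted p = 1.0). The efficiency was at percentile 23.2 and 35.0 in KO and at 53.9 and 46.3 in WT. For replicate 2 the counting interval of this change was -0.56 to -0.06. Khsrp and Cnot1 were the 2 of 10 factors lower in KO in both replicates relative to all genes in translation efficiency, against 24.7% of all genes, and 0 of 10 were higher in both, against 24.7%.

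Elavl1 (chromosome 8, 4284781 to 4325140) had the largest RPF difference between the tables among the 10 factors. Its input was 14.1 and 11.1 RPKM in KO against 12.2 and 13.1 RPKM in WT, higher in KO in replicate 1 and lower in replicate 2. Its RPF was 1.45 RPKM in KO against 1.15 RPKM in WT in replicate 1, and 76.2 RPKM in KO against 116.5 RPKM in WT in replicate 2. The replicate 2 value was 52.5 times that of replicate 1 in KO and 102 times in WT, a ratio at percentile 97.63 and 97.83 of all genes. Translation efficiency of Elavl1 was at percentile 1.8 and 96.3 in KO and at 1.5 and 97.2 in WT, so the tables put this mRNA at opposite ends of the genes under both labels. In replicate 2 its RPF was scaled on 978 coding bases and its input on 6030 exon bases, and the lengths used in replicate 1 are unknown. Within replicate 2 the values stand for 393 KO reads and 551 WT reads, with a log2 KO/WT of RPF of -0.61 as deposited (counting interval -0.80 to -0.42), whereas replicate 1 gave 0.25.

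Arid5a, which binds and stabilizes Il6 mRNA, was the lowest of the factors in input. Arid5a (chromosome 1, 36307733 to 36324037) had 5.77 and 7.06 RPKM of input in KO against 5.91 and 5.08 RPKM in WT. Its RPF was 5.34 and 16.0 RPKM in KO against 7.06 and 14.7 RPKM in WT, with 109 KO reads and 92 WT reads in replicate 2. The groups overlapped in RPF and in input, and the replicate 2 RPF values were above those of replicate 1 whatever the label. Relative to all genes it was the 1 factor of 10 that was higher in KO in both replicates in RPF, by 0.09 and 0.14 on the log2 scale, against 24.4% of all genes.

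Cnot1, the scaffold of the CCR4-NOT deadenylase, had lower RPF in KO in both replicates. Cnot1 (chromosome 8, 95718931 to 95808113) had 36.0 RPKM of RPF in KO against 85.5 RPKM in WT in replicate 1, and 22.6 RPKM in KO against 27.2 RPKM in WT in replicate 2, from 849 KO reads and 935 WT reads. KO was lower within each replicate, and the KO value of replicate 1 was above the WT value of replicate 2. Input was 28.8 and 33.2 RPKM in KO against 23.0 and 35.5 RPKM in WT. In RPF the log2 KO/WT was -1.24 and -0.26 (fit -0.75 ± 0.61, SE, limma adjusted p = 0.999) and in translation efficiency it was -1.56 and -0.16 (fit -0.86 ± 0.65, SE, limma adjusted p = 1.0). The gene overlaps 5 other annotated genes, of which Setd6 is in both tables, and whether the counting used strand is not given in the sources used here.

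Btg1, an antiproliferative protein that binds the CCR4-NOT deadenylase, was the highest of the factors in input and in RPF in every library. Btg1 (chromosome 10, 96617001 to 96622813) had 397 and 248 RPKM of input in KO against 297 and 249 RPKM in WT. Its RPF was 289 RPKM in KO against 609.8 RPKM in WT in replicate 1, and 468 RPKM in KO against 359.6 RPKM in WT in replicate 2, from 1268 KO reads and 892 WT reads. The 2 replicates went opposite ways in RPF, with a log2 KO/WT of -1.08 and 0.38, the same pattern as in Zfp36l1. In translation efficiency the values were -1.50 and 0.39, and the fit was -0.56 ± 0.65 (SE, limma adjusted p = 1.0).

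**Figure D2:**
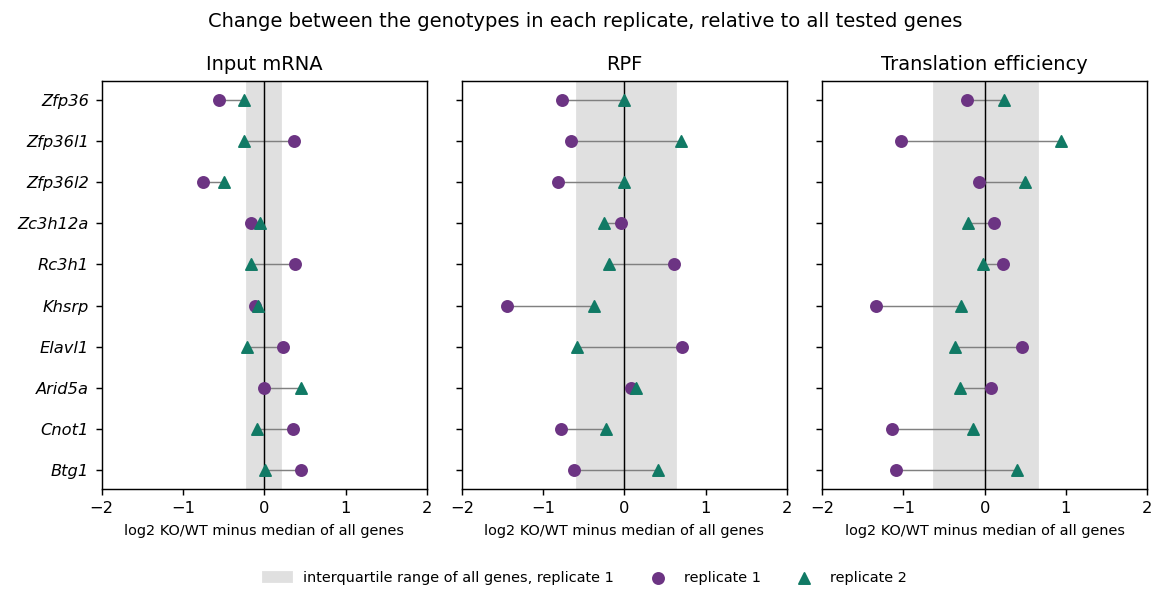
log2 KO/WT of each factor minus the median of all tested genes, for input mRNA, RPF and translation efficiency, with replicate 1 as circles and replicate 2 as triangles joined by a line. The grey band is the interquartile range of all genes in replicate 1. Zfp36l2 lies left of 0 in both replicates in input (-0.76 and -0.49), Khsrp lies left in both in RPF (-1.45 and -0.37), and Zfp36l1 crosses from -1.03 to 0.94 in translation efficiency.

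As a set, the factors did not move one way relative to all genes. Relative to all genes, 4 of 10 were lower in KO in both replicates in input (Zfp36, Zfp36l2, Zc3h12a and Khsrp), against 23.0% of all genes, and 2 were higher (Arid5a and Btg1), against 23.1%. Both of these counted by a narrow margin on the log2 scale, 0.0017 for Arid5a in replicate 1 and 0.0035 for Btg1 in replicate 2, and as deposited 0 of 10 were higher in KO in both replicates in input, against 19.9% of all genes. In RPF 4 of 10 were lower in both relative to all genes (Zfp36, Zc3h12a, Khsrp and Cnot1), against 24.4% of all genes. As deposited, where the median gene was below 0, the fitted change of every factor was below 0 in RPF and in translation efficiency. The share of all genes with a fitted change below 0 was not counted. Some of these values were close to 0 (-0.03 for Rc3h1 in RPF, -0.0047 for Zfp36l2 in translation efficiency). With each library centred on its median, several turned above 0. As deposited, 5 of 10 were lower in both in RPF, against 35.9% of all genes, and 0 higher, against 14.4%. In translation efficiency 5 of 10 were lower in both, against 34.2%, and 0 higher, against 15.5%. With the median of all genes subtracted, the 10 had a median of 0.12 (replicate 1) and -0.13 (replicate 2) in input, -0.64 and -0.10 in RPF, and -0.14 and -0.09 in translation efficiency.

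**Figure D3:**
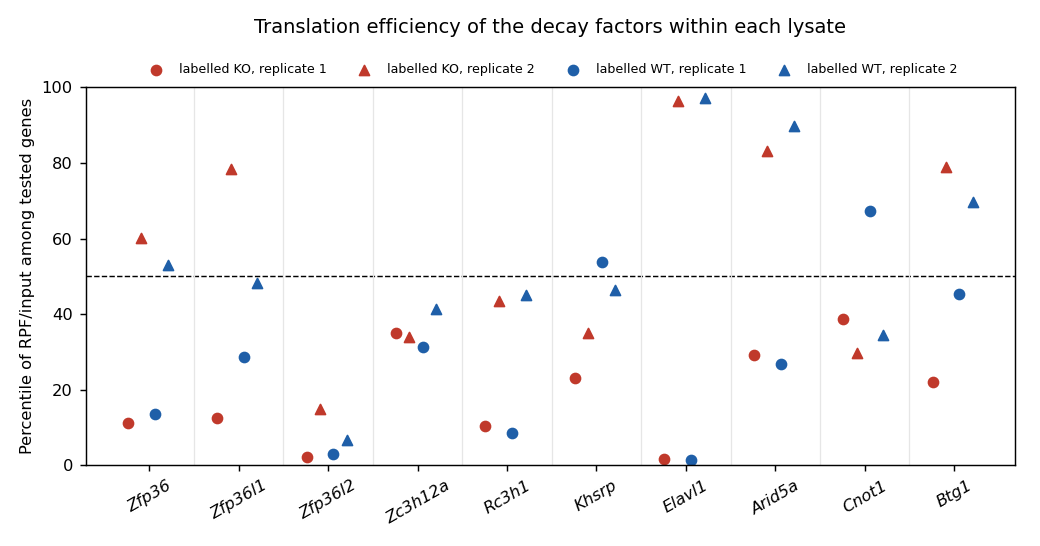
Percentile of RPF/input of each factor among all tested genes of the same lysate, with KO in red to the left of WT in blue, and circles and triangles for replicates 1 and 2. Zfp36l2 stays at or below percentile 15.0 in all 4 lysates, Zc3h12a stays between 31.4 and 41.3, and Elavl1 lies near 0 in replicate 1 and above 96 in replicate 2.

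In translation efficiency the place of most factors among all genes differed more between the replicates than between the labels. In replicate 2, RPF was scaled on coding length and input on exon length. The lengths used in replicate 1 were not established, so the percentiles of the replicates may rest on unlike measures. Whether this moved the factors was not tested. In replicate 1 all 10 lay below the median gene in KO and 8 of 10 in WT, with a median percentile of 17.3 in KO and 27.8 in WT. In replicate 2 the counts were 5 of 10 in KO and 6 of 10 in WT, with a median percentile of 51.8 in KO and 47.3 in WT. Zfp36l2 and Zc3h12a had the narrowest ranges over the 4 lysates, 2.3 to 15.0 and 31.4 to 41.3.

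**Figure D4:**
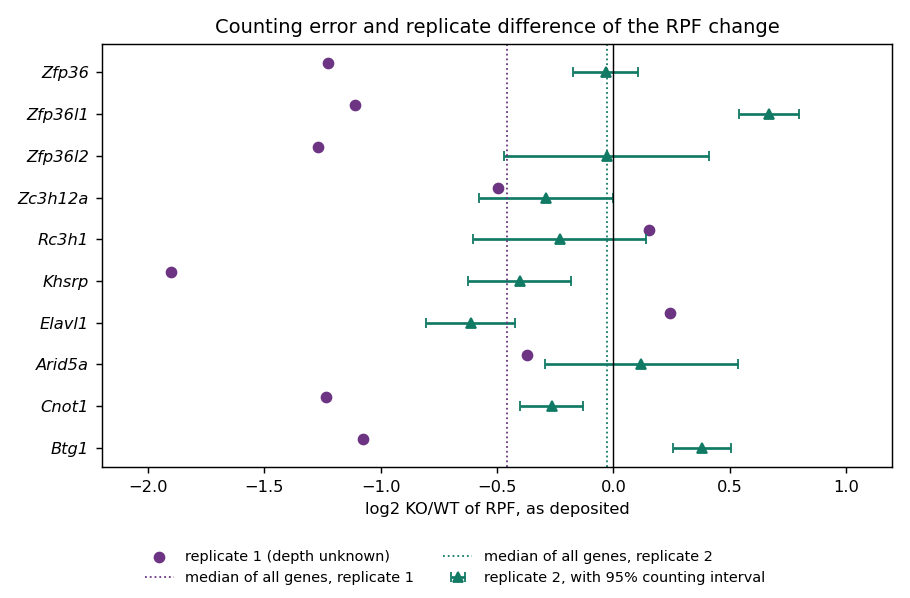
log2 KO/WT of RPF as deposited for each factor, in replicate 2 with its exact 95% counting interval (triangles and bars) and in replicate 1 (circles, depth unknown), with dotted lines at the median of all genes in each replicate. Zfp36l1 and Btg1 lie right of 0 in replicate 2 (0.67 and 0.38) and left of -1 in replicate 1.

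In replicate 2 the exact counting interval of the RPF change lay below 0 for Zc3h12a, Khsrp, Elavl1 and Cnot1, above 0 for Zfp36l1 and Btg1, and across 0 for Zfp36, Zfp36l2, Rc3h1 and Arid5a. For Zc3h12a the interval reached up to -0.0017 and took in the median of all genes, at -0.03. Such intervals do not cover the spread between replicates, which for Zfp36l1 put the RPF change at -1.11 in replicate 1 and 0.67 in replicate 2. They also assume independent reads, which cannot be taken for granted without molecular identifiers. The share of all genes with an interval that leaves out 0 was not counted.

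No other gene of the decay machinery listed here passed either. Passing was rare among all tested genes, at 0.242% for RPF, 0.165% for translation efficiency and 0.0% for input mRNA. A count of 0 in lists this short therefore does not set their genes apart from the rest. Of 16 tested genes of the CCR4-NOT, PAN2-PAN3, PARN and BTG/TOB proteins, 0 passed in input, RPF or translation efficiency, and the same held for 29 tested genes of decapping and exonucleolytic decay and for 22 tested binders of AU-rich elements and their kinases. At an unadjusted p under 0.05 these 3 lists held 0, 1 and 3 genes in translation efficiency, against 5.55% of all tested genes, and 0, 2 and 3 in RPF, against 5.6%. The members with the largest change in translation efficiency of the same sign in both replicates were Cnot6 (a deadenylase, fitted log2 1.19 ± 0.68), Tob2 (-0.80 ± 0.66) and Cnot4 (-0.72 ± 0.65) in the first list and Dcp1b (1.22 ± 0.67), Dcp2 (the decapping enzyme, -1.07 ± 0.66) and Exosc2 (an exosome subunit, -1.0 ± 0.64) in the next. Among the binders they were Pum2 (-1.85 ± 0.67, adjusted p = 0.478), Mex3c (-1.82 ± 0.67, adjusted p = 0.479) and Hnrnpa0 (-1.56 ± 0.69, adjusted p = 0.73), none of which passed (SE, limma). For all genes named from these 3 lists the change was larger in replicate 1. It was 2.26 there and 0.12 in replicate 2 for Cnot6, -3.27 and -0.43 for Pum2, and -3.59 and -0.05 for Mex3c. WT RPF of replicate 1 was near the floor for Cnot6 (0.346 RPKM) and Dcp1b (0.456 RPKM), below the pseudocount of 0.5. Pum2 RPF was listed at 0.902 RPKM in KO against 11.3 RPKM in WT in replicate 1 and at 95141 RPKM in KO against 127401 RPKM in WT in replicate 2, so its levels are not comparable between the tables.

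Of 25 inflammatory mRNAs known as targets of the factors, 21 were tested, and Il6 alone passed, in RPF and in translation efficiency. Il6, which has no nonamer and 6 copies of ATTTA in its 3′UTR, had 41.0 and 80.3 RPKM of input in KO against 31.8 and 74.1 RPKM in WT, and 2.39 and 32.0 RPKM of RPF in KO against 30.1 and 112 RPKM in WT. Its fitted log2 KO/WT was -2.59 ± 0.62 in RPF (limma adjusted p = 0.0179) and -2.83 ± 0.68 in translation efficiency (adjusted p = 0.0209), and neither passed with each library centred on its median (adjusted p = 0.994 and 0.663). Ccl2, a chemokine, had a fitted change in translation efficiency of -1.91 ± 0.67 (adjusted p = 0.427), and Fos, an AP-1 subunit, had 1.41 ± 0.68 (adjusted p = 0.857). Tnf had 28.1 and 29.3 RPKM of RPF in KO against 26.0 and 132 RPKM in WT, so it was lower in KO in replicate 2 and not in replicate 1, with 109 KO reads against 450 WT reads in replicate 2. With the median of all genes subtracted, the 21 targets had a median RPF change of 0.41 in replicate 1 and of -0.80 in replicate 2. In input 11 of the 21 had an unadjusted p under 0.05, against 3.28% of all tested genes, and 0 passed.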

How the data were processed

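Per the file headers, the authors deposited RPKM values, with a table for each replicate. Cuffnorm, TopHat2 2.0.14, bcl2fastq and the build mm10 stand in the submitters' processing notes, while the annotation and read filters were not given in the sources used here. The table of replicate 2 uses the column names of the other table, and these were read as group names. Another 4 columns of the authors' log2 translation efficiencies were not used. Tables held 20605 and 11801 rows, of which 27 and 19 with dates for symbols were dropped. Symbols were updated through RefSeq synonyms, which left 11743 shared genes (11457 as written), and 10321 had a mean of at least 1 RPKM in input and in RPF.

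Changes were fitted with limma 3.58.1 (R 4.3.3) on log2(RPKM + 0.5), a scale that understates changes of low genes, with replicate as a block, an intensity trend and Benjamini-Hochberg adjustment at 0.05. Deviations of same-numbered libraries correlated across genes at 0.78 (input), 0.85 (RPF) and 0.83 (translation efficiency), and the number also marks the table. The procedure was tested on simulated data with large planted changes and a common spread for all genes. That test does not show how often smaller changes would be missed. In replicate 2, RPKM gave whole reads (tolerance 0.01 read) for 98.2 to 98.3% of genes in RPF on coding length and 79.1 to 79.3% in input on exon length, against 2.0 to 3.2% with the length of another gene. Exact 95% intervals from these reads cover counting error only. Input reads were not recovered for Zfp36l2, Cnot1 and Btg1. Sequences and motif counts come from RefSeq GRCm38.p6.

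All 10 factors are named, with the 3 genes of each further list that had the largest change in translation efficiency of one sign in both replicates, Tnf for its site, and Mettl3. Factors and lists were chosen with earlier results of these data known. Alternatives were other pseudocounts and filters, centring, quantile normalization, no replicate block, single libraries left out and symbols as written.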

Additional observations from a re-analysis of the deposited data

How the results depend on the processing

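None of the 10 factors passed in any measure under any alternative tried. Over all genes, 0, 25 and 17 genes passed in input, RPF and translation efficiency. With each library centred on its median, with quantile normalization or with no replicate block, 0 passed in RPF and 0 in translation efficiency, and a pseudocount of 0.1 gave 29 in translation efficiency. Fits that left out 1 library, which cannot keep the block, called 0 to 50 genes in input, 0 to 3 in RPF and 0 to 4 in translation efficiency, and in them the lone sample is assumed to vary like the others. Of 360 values of the factors' log2 KO/WT under alternatives, 311 kept their direction and 49 did not. Values under other filters, with no replicate block or with symbols as written could not turn. They equal the fitted values above by construction, so the count of kept directions is partly fixed in advance. With centring the sign turned to 0.017 for Elavl1 in input, to 0.016 for Zfp36l1, 0.21 for Rc3h1, 0.054 for Elavl1 and 0.11 for Arid5a in RPF, and to 0.0027 for Zfp36, 0.20 for Zfp36l2, 0.0905 for Rc3h1 and 0.037 for Elavl1 in translation efficiency. With quantile normalization it turned to 0.022 for Elavl1 in input, 0.11 for Rc3h1 and 0.056 for Arid5a in RPF and 0.13 for Zfp36l2 in translation efficiency, which a pseudocount of 1 put at 0.047. Leaving out 1 library gave ranges across 0. With no block in those fits, the level difference between the tables enters each value together with the difference between the labels. In input they were -0.24 to 0.32 for Zfp36l1, -0.071 to 0.24 for Rc3h1, -0.29 to 0.047 for Khsrp, -0.18 to 0.15 for Elavl1, -0.20 to 0.42 for Cnot1 and -0.13 to 0.55 for Btg1. In RPF they were -0.94 to 0.50 for Zfp36l1, -1.68 to 0.38 for Zfp36l2, -0.71 to 0.65 for Rc3h1, -3.26 to 2.89 for Elavl1, -0.88 to 0.62 for Arid5a, -1.56 to 0.069 for Cnot1 and -0.73 to 0.032 for Btg1. In translation efficiency they were -0.99 to 0.58 for Zfp36, -1.26 to 0.74 for Zfp36l1, -0.80 to 0.79 for Zfp36l2, -0.59 to 0.065 for Zc3h12a, -0.71 to 0.48 for Rc3h1, -3.20 to 2.86 for Elavl1, -0.95 to 0.28 for Arid5a, -1.99 to 0.27 for Cnot1 and -1.24 to 0.13 for Btg1. Input of Zfp36, Zfp36l2, Zc3h12a and Arid5a, RPF of Zfp36, Zc3h12a and Khsrp and translation efficiency of Khsrp kept their direction in every fit, but not their size. Their lowest absolute values were as follows. Without WT replicate 1, Zfp36 input was -0.05 (-0.43 with all libraries), Zc3h12a RPF -0.11 (-0.39), Khsrp RPF -0.57 (-1.15) and Khsrp translation efficiency -0.31 (-1.03). Without KO replicate 1, Zfp36 RPF was -0.054 (-0.63), Zc3h12a input -0.023 (-0.13) and Zfp36l2 input -0.41 (-0.64), and without KO replicate 2, Arid5a input was 0.069 (0.20). Beyond this level difference between the tables in fits without 1 library, the cause of these dependences was not tested. Depth is known only in replicate 2, where the factors had 86 to 1341 RPF reads, and 2 replicates per group limit every comparison.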
